A study of Mus musculus with 10 samples.

Results

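Cirbp and Rbm3, the genes of the mammalian cold-inducible RNA-binding proteins, were followed in whole-lung mRNA of 10 mice. They were taken by gene name, 2 of the 54532 genes of the expression table, and both were among the 20448 genes with a mean of at least 0.1 FPKM (fragments scaled to gene length and library size) that were tested. The 5 mice of the increased pulmonary flow (IPF) group were wild-type C57BL/6J pups that received an aortocaval fistula at postnatal day 7 (P7), a join between the abdominal aorta and the inferior vena cava that sends more blood through the lungs. The 5 mice of the sham group had the same operation without the puncture, and all lungs were snap-frozen at P30. Mice were kept under a light and dark cycle, and the hour of collection was not given in the sources used here.

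Cirbp and Rbm3 are small proteins with an RNA recognition motif at the amino end and a glycine-rich tail. Mild cooling raises their mRNA and protein, warming lowers them, and in many tissues both follow the daily rhythm of body temperature. CIRBP binds transcripts of clock genes, among them Clock, and released CIRBP acts outside the cell on TLR4 with its co-receptor MD-2 and on TREM-1. RBM3 is known for its part in translation and in the survival of cooled neurons. Heat shock genes such as Hspa1a, Hspa1b and Hsph1 respond to temperature in the opposite direction, through the factor HSF1.

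Sequences are given where they bear on how reads were assigned or on what the genes share. Rbm3 has a processed pseudogene, Rbm3-ps (ENSMUSG00000099875, chromosome 1 of GRCm38, 150265535 to 150265999), a copy of its reading frame. The 465 bases of Rbm3-ps matched the reading frame of the transcript Rbm3-204 at 462 bases, an identity of 99.4%. The differences, counted from the first base of the start codon and with the base of Rbm3 first, were T198C, T315C and G316A. Of the 316 windows of 150 bases, the read length, in Rbm3-ps, 48 were identical to an Rbm3 transcript (15.2%). Cirbp is far more distant, with 171 of the first 240 coding bases equal to those of Rbm3 (71.2%) and a longest shared run of 11 bases, so that reads of Cirbp and Rbm3 can be told apart. The stretches below show where Rbm3-ps and Cirbp depart from Rbm3, with capitals marking each base that differs from Rbm3, and are taken from GENCODE M39 transcripts.
Rbm3 bases 121 to 180: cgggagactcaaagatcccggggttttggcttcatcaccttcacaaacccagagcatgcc
Cirbp bases 121 to 180: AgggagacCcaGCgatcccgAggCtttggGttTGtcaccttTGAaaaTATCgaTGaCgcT
Rbm3 bases 181 to 240: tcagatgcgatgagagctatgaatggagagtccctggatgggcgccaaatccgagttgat
Rbm3-ps bases 181 to 240: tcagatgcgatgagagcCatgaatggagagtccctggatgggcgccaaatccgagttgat
Cirbp bases 181 to 240: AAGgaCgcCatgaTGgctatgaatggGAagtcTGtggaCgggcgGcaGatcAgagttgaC
Rbm3 bases 301 to 360: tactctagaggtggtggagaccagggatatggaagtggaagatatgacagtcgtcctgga
Rbm3-ps bases 301 to 360: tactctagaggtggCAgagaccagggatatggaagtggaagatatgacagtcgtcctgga

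The promoter of Cirbp is printed because the sequence TCCCCGCC is known as its mild cold response element. It was read from the RefSeq promoter table (GRCm38.p6), which lists 2 promoters for Cirbp and holds Hspa1a, Hspa1b and Hsph1 too. Capitals mark TCCCCGCC, the Sp1 box GGGCGG and CCAAT, each searched on both strands, and none of these matches overlapped another.
Cirbp promoter, chr10:80167589-80167838, plus strand, the 250 bases before the start: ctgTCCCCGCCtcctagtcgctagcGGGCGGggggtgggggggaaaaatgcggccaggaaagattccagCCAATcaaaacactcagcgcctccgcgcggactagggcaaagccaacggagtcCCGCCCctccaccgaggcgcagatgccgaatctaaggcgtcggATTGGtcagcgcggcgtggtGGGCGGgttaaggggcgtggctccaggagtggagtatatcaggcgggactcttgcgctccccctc
TCCCCGCC lay 247 to 240 bases before the start, and 5.38% of all 32851 promoter windows of 300 bases held it. It was also present in the windows of Hspa1a, Hspa1b and Arntl, and its part in the level of any gene here was not tested. GGGCGG was present 3 times (35.7% of windows held it) and CCAAT 2 times (37.4%). The second Cirbp window, chr10:80167921-80168220, held neither TCCCCGCC nor CCAAT, and held GGGCGG 4 times. Neither Cirbp window held the E-box CACGTG (7.15% of windows), the D-box TTATGTAA (0.938%) or the nuclear receptor site AGGTCA (16.3%). The windows of Dbp, Nr1d1 and Arntl held no CACGTG or TTATGTAA either, while a Per1 window held CACGTG. Control by the clock was not tested. The heat shock element cores GAANNTTC (7.86%) and TTCNNGAA (8.52%) were also absent from both Cirbp windows. The heat shock genes of this comparison did hold such a core, shown in capitals in 30-base stretches of the minus strand, and the stretch was the same in Hspa1a and Hspa1b.
Hspa1a promoter, chr17:34972237-34972266: ctgctgGAAGATTCctggccccaaggcctc
Hspa1b promoter, chr17:34959319-34959348: ctgctgGAAGATTCctggccccaaggcctc
Hsph1 promoter, chr5:149636346-149636375: gaatctTTCTCGAAggctcgagaagaagga

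Reads on genes numbered between 15483046 and 19026843 per library, and pairs of libraries of a group differed by more than counting noise. The X-linked silencing RNA Xist ranged from 26.8 to 43.2 FPKM in the IPF lungs and from 0.0301 to 0.0767 FPKM in the sham lungs, and the Y-linked genes Ddx3y, Eif2s3y, Kdm5d and Uty were listed at 0 in every IPF lung and above 0 in every sham lung. These 5 genes therefore divided the lungs exactly by group, although the methods describe pups of both sexes, and operation and sex cannot be told apart in any comparison here. Rbm3 itself is on the X chromosome. Over all genes, sham replicate 1 stood apart, with 25486 genes above 0 against 22475 to 23575 in the other libraries and a mean Spearman correlation with the others of 0.912 against 0.929 to 0.932. IPF replicate 5 stood apart from its group in genes described below, so the values of Cirbp and Rbm3 are also given without either library. Markers of lung cells were present in every library, and alveolar type 2 markers (Sftpc, Sftpb, Sftpa1, Lamp3) summed to between 12307 and 19757 FPKM, lowest in sham replicate 1. Because whole lungs were sequenced, fewer cells of a type and less RNA per cell cannot be told apart.

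Cirbp and Rbm3 had similar levels, and both were lower in the IPF group. Rbm3 was lower by 28.9% and Cirbp by 16.9%, and neither passed the test over all genes. In Rbm3 the lungs lay close together within each group apart from a single lung in each. Leaving out either of those lungs brought Rbm3 under the threshold. Both were singled out after their Rbm3 values were seen, and leaving out either had to widen the difference. Rbm3 ranked 3032 and Cirbp 3432 by mean level among the 20448 genes tested.

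Rbm3 (ENSMUSG00000031167, chromosome X of GRCm38, 8138975 to 8145880, minus strand) measured 14.4, 13.9, 13.5, 12.8 and 20.3 FPKM in IPF replicates 1 to 5. In sham replicates 1 to 5 it measured 15.6, 21.7, 23.6, 21.3 and 22.9 FPKM. Of the 5 IPF lungs, 4 lay below every sham lung, while IPF replicate 5 lay between the lowest and the second lowest sham lung, and sham replicate 1 lay near the other IPF lungs. The IPF mean was 15.0 ± 3.0 FPKM and the sham mean 21.0 ± 3.2 FPKM (SD, n = 5 each). The log2 fold change, on the log2(FPKM + 0.1) scale, was -0.49 with a standard error of 0.14 and a 95% confidence interval from -0.80 to -0.18. Its limma p was 0.00477 and its adjusted p was 0.0671 over all genes tested, above the threshold of 0.05. An exact two-sided permutation test over the 252 assignments of the 10 lungs gave p = 0.0159, where the smallest p this design allows is 0.00794. With IPF replicate 5 left out the difference was -0.61 (limma adjusted p = 0.00864), and with sham replicate 1 left out -0.60 (limma adjusted p = 0.0210), while leaving out any other single lung gave no call. Each was the lung of its group nearest the other group in Rbm3, so leaving it out had to widen the difference. With both left out it was -0.71, a description with no test, since these lungs were chosen after their Rbm3 values were seen. Leaving out 1 lung in turn, the value ranged from -0.61 to -0.44 and the adjusted p from 0.00864 to 0.154.

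Cirbp (ENSMUSG00000045193, chromosome 10, 80165985 to 80172786, plus strand) measured 15.8, 14.5, 14.5, 12.1 and 15.7 FPKM in IPF replicates 1 to 5. In sham replicates 1 to 5 it measured 14.3, 17.5, 21.1, 16.4 and 18.5 FPKM. The groups overlapped through sham replicate 1, the lowest sham lung in Cirbp as in Rbm3, and only IPF replicate 4 lay below every sham lung. The IPF mean was 14.5 ± 1.5 FPKM and the sham mean 17.6 ± 2.5 FPKM (SD, n = 5 each). The log2 fold change was -0.27 (SE 0.11, 95% confidence interval -0.50 to -0.03), with a limma p of 0.0282 and an adjusted p of 0.185. The exact two-sided permutation test gave p = 0.0476. Without sham replicate 1 the difference was -0.34 (limma adjusted p = 0.0750), and without IPF replicate 5 it was -0.30 (limma adjusted p = 0.163). No alternative among 21 brought Cirbp under the threshold, and its limma adjusted p ranged from 0.0750 to 0.347 on leaving out 1 lung.

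As background, 1196 of the 20448 genes (5.85%) had an adjusted p under 0.05, 759 of them higher in IPF (3.71%) and 437 lower (2.14%). An unadjusted p under 0.05, which both members reached, was seen in 3989 genes (19.5%), and 1698 of these were lower (8.3%). With an absolute log2 fold change above 1 added to the limit, 233 genes were called (1.14%), and neither member was. Groups did not overlap in 1491 genes (7.29%), and they overlapped in both members.

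**Figure D1:**
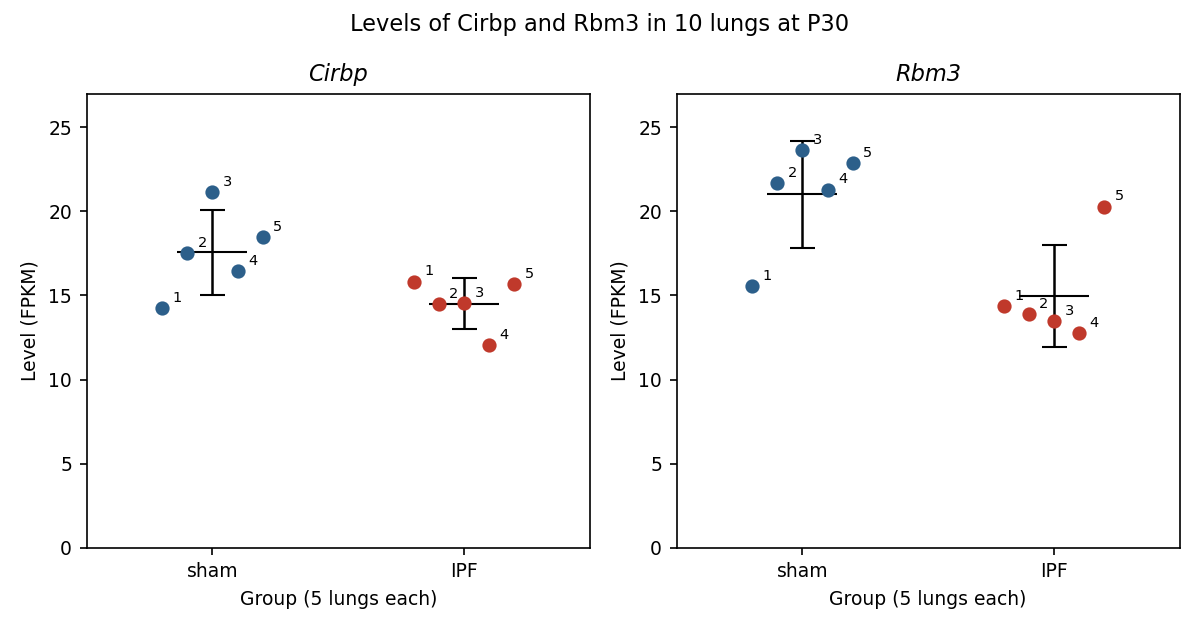
Levels of Cirbp (left) and Rbm3 (right) in FPKM on linear axes from 0, by group. Points are lungs with the replicate number beside them, the wide bar is the group mean and the whisker is 1 SD (n = 5). IPF replicate 5 (20.3 FPKM of Rbm3) and sham replicate 1 (15.6 FPKM) lie apart from the other lungs of their groups.

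The spread between lungs was larger than the counting error. Rbm3 rested on 1088 to 1825 reads per library and Cirbp on 572 to 883, which gives counting errors of 2.34% to 3.03% and of 3.37% to 4.18%. The coefficients of variation between lungs of a group were 20.3% (IPF) and 15.2% (sham) for Rbm3, and 10.4% (IPF) and 14.4% (sham) for Cirbp. Counting errors cover the counting of reads alone.

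The balance of the genes was compared within each lung, as the log2 level of Rbm3 minus that of Cirbp. It was -0.14, -0.06, -0.11, 0.08 and 0.37 in IPF replicates 1 to 5, and 0.13, 0.30, 0.16, 0.37 and 0.31 in sham replicates 1 to 5. Rbm3 thus exceeded Cirbp in every sham lung, and in the IPF group it did so in replicates 4 and 5. The means were 0.03 ± 0.21 (SD, n = 5) and 0.25 ± 0.11 (SD, n = 5), a difference of -0.23 (exact permutation p = 0.0714), so that unequal change of the members was not shown over all lungs. Without IPF replicate 5 the groups did not overlap and the difference was -0.31 (exact permutation p = 0.00794), and without any other single lung the exact permutation p was between 0.0635 and 0.159. As IPF replicate 5 had the highest IPF value, leaving it out had to widen the difference.

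Rows that share sequence or position with Rbm3 held few reads. Rbm3-ps measured 0.884, 1.68, 2.39, 1.30 and 3.28 FPKM in IPF replicates 1 to 5 and 2.35, 3.12, 4.15, 4.26 and 3.53 FPKM in sham replicates 1 to 5, on 7 to 33 reads per library. IPF replicate 5 was again the highest of its group and sham replicate 1 the lowest of its own. The log2 fold change of Rbm3-ps was -0.94 (SE 0.30, limma adjusted p = 0.102), and given its near-identity to Rbm3 its reads may belong to either gene. With its reads added to those of Rbm3, the log2 fold change of Rbm3 was -0.50 (limma adjusted p = 0.0659). Rbm3os, an antisense RNA that overlaps Rbm3 on the opposite strand (8145429 to 8147964), had 2 to 18 reads per library and differed by 0.04 in log2 units (limma adjusted p = 0.978). How the authors' counting used strand was not given in the sources used here, so reads in the overlap may be shared.

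Neighbours of the members on their chromosomes were set beside them. None of the 3 nearest protein-coding genes on either side of Rbm3 (Suv39h1, Was, Wdr13, Tbc1d25, Ebp and Porcn) was called, with limma adjusted p from 0.0839 for Was, which had a log2 fold change of 0.47. None of the 6 around Cirbp (Cbarp, Atp5d, Midn, 1600002K03Rik, Efna2 and Mum1) was called either, with adjusted p from 0.280. The 647 X-linked genes tested had a median log2 fold change of 0.04 beside 0.002 over all genes, and 40 were called, 33 higher and 7 lower. Rbm3 stood at -0.49 on that chromosome.

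Within the groups, the deviations of Cirbp and Rbm3 ran in the same direction, but their correlation did not pass the correction. After each gene was centred on its group mean, Pearson's r was 0.76 (permutation p = 0.0267, adjusted p = 0.200 over 23 pairs) and Spearman's rho 0.78 (permutation p = 0.00701, adjusted p = 0.0921) over the 10 lungs. Without the 2 lungs farthest in Cirbp, sham replicates 1 and 3, r was 0.62 (permutation p = 0.210), and without sham replicate 1 alone it was 0.60 (permutation p = 0.153), so the relation within groups rests in part on that lung. Without IPF replicate 5, r was 0.85 (permutation p = 0.000694, adjusted p = 0.0160), the only setting among 12 in which it passed. With the group difference left in, r was 0.86 (permutation p = 0.00017, adjusted p = 0.00119 over 7 pairs) and rho 0.89 (permutation p = 0.00123, adjusted p = 0.0043), and r was 0.84 without the 2 farthest lungs. This pooled value holds the difference between groups as well as that between lungs.

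**Figure D2:**
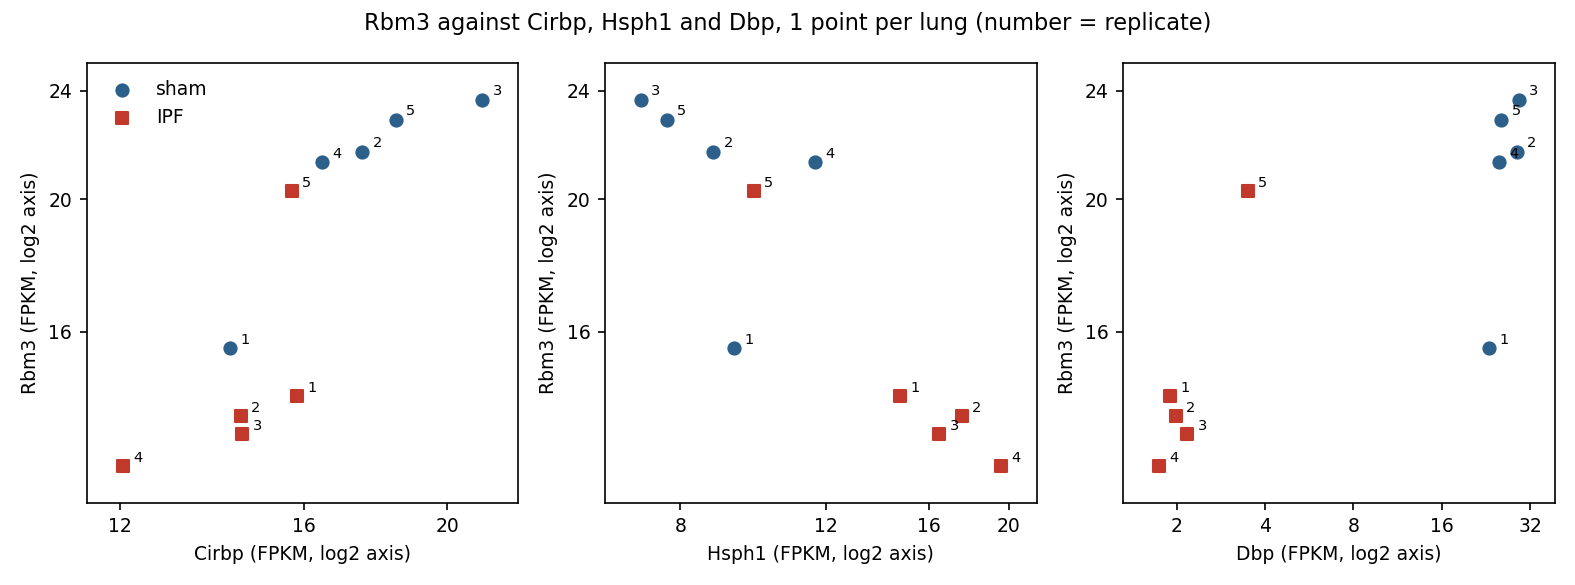
Rbm3 (vertical axes) against Cirbp, Hsph1 and Dbp (horizontal axes), all in FPKM on log2 axes, 1 point per lung with its replicate number, circles for sham and squares for IPF. IPF replicate 5 lies at the sham side of its group in Rbm3, Hsph1 (9.82 FPKM) and Dbp (3.49 FPKM), and the groups are far apart in Dbp.

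Of the heat shock genes set beside the members, Hsph1 and Hspa1b were called higher in the IPF group and Hspa1a was not called. Hsph1, a large chaperone of the HSP110 family, measured 14.8, 17.5, 16.5, 19.5 and 9.82 FPKM in IPF replicates 1 to 5 and 9.30, 8.76, 7.17, 11.7 and 7.71 FPKM in sham replicates 1 to 5. It was higher in IPF, by 0.79 in log2 units (SE 0.18, limma adjusted p = 0.0272), and IPF replicate 5 alone lay within the sham range. Hspa1b, an inducible HSP70, measured 12.4, 10.9, 7.08, 16.4 and 5.51 FPKM in the IPF lungs and 3.31, 3.78, 3.11, 6.60 and 2.69 FPKM in the sham lungs, which is a log2 fold change of 1.37 (SE 0.30) at a limma adjusted p of 0.0232. Hspa1a, its near-identical neighbour, between which the counting could split reads, measured 7.64, 5.96, 4.17, 9.71 and 4.19 FPKM in the IPF lungs and 2.92, 3.23, 1.68, 4.76 and 1.70 FPKM in the sham lungs. Its log2 fold change of 1.15 (SE 0.31) had an adjusted p of 0.0564 by limma. Under the alternatives tried, the call of Hspa1b was lost in 7 and that of Hsph1 in 8, and Hspa1a was called in 6. In all 3 genes the highest lungs were IPF replicate 4 and, within its group, sham replicate 4.

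Of the 20 heat shock genes listed, 5 rose (Hspa1b, Hsph1, Hspa8, Dnaja1 and Chordc1), none fell, and 19 had a positive log2 fold change, with a median of 0.35 beside 0.002 over all genes. Hspa8, the constitutive HSP70, rose from 295 ± 45.4 to 437 ± 58.0 FPKM (means ± SD) with no overlap, by 0.57 in log2 units (limma adjusted p = 0.0200). The large HSP90 genes Hsp90ab1 (log2 fold change 0.43, limma adjusted p = 0.0764) and Hsp90aa1 (0.38, adjusted p = 0.185) did not pass, nor did Hsf1 (0.10, adjusted p = 0.458) and Hsf2 (-0.06, adjusted p = 0.778), which encode heat shock factors. The count depended on single lungs, from 1 without IPF replicate 2, sham replicate 3 or sham replicate 5 to 13 without IPF replicate 5.

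Pooled over the groups, Rbm3 and Hsph1 ran in opposite order. Each pooled value with a heat shock gene holds the difference between groups as well as that between lungs. Over the 10 lungs r was -0.89 (permutation p = 0.00267, adjusted p = 0.00623 over 7 pairs) and rho -0.94 (permutation p = 0.00024, adjusted p = 0.00168), and r was -0.83 without the 2 farthest lungs. Centred on the group means, r was -0.74 (permutation p = 0.0401, adjusted p = 0.200) and rho -0.71 (permutation p = 0.0379, adjusted p = 0.211), so that the relation within groups did not pass the correction. It was -0.43 without IPF replicate 5 (permutation p = 0.383). Without the 2 lungs farthest in Hsph1, IPF replicate 5 and sham replicate 4, r was -0.73 (permutation p = 0.0104, not adjusted). Cirbp and Hsph1 gave a pooled r of -0.82 (permutation p = 0.00251, adjusted p = 0.00623) and rho of -0.78 (permutation p = 0.0105, adjusted p = 0.0184), and r was -0.70 without the 2 farthest lungs. Centred, their r was -0.67 (permutation p = 0.0434, adjusted p = 0.200) and rho -0.81 (permutation p = 0.0110, adjusted p = 0.0921), and r was -0.75 without IPF replicate 5. Without IPF replicate 5 and sham replicate 4 their centred r was -0.93 (permutation p = 0.00521, not adjusted). The pooled r with Hspa1a was -0.76 for Rbm3 and -0.79 for Cirbp, and with Hspa1b it was -0.77 and -0.72, each with an adjusted permutation p between 0.0120 and 0.0180, and these values lay between -0.64 and -0.49 without the 2 farthest lungs. By rank, rho with Hspa1a was -0.76 for Rbm3 (adjusted permutation p = 0.0208) and -0.60 for Cirbp (adjusted permutation p = 0.0724), and with Hspa1b it was -0.85 (adjusted permutation p = 0.00714) and -0.64 (adjusted permutation p = 0.0643). Centred on the group means, the 4 values of r with Hspa1a and Hspa1b lay between -0.62 and -0.45, with adjusted permutation p from 0.293.

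The circadian clock genes were far apart between the groups. Of 19 genes listed, 17 were called, 5 higher and 12 lower in IPF, and the groups did not overlap in 17. The activators Arntl (log2 fold change 3.63), Npas2 (3.44) and Clock (0.57) rose, with Nfil3 (1.87). Among the genes they drive and the repressors, those that fell included Nr1d1 (-4.23), Dbp (-3.53), Nr1d2 (-3.26), Per3 (-2.03), Per1 (-1.77), Tef (-1.77) and Per2 (-1.38), each with a limma adjusted p of at most 0.00574. The median over the list was -0.92. Rora (-0.50, limma adjusted p = 0.0733) and Cry1 (0.27, adjusted p = 0.0539) did not pass. Dbp, a PAR bZIP factor driven directly by the core clock, measured 1.90, 1.98, 2.17, 1.74 and 3.49 FPKM in IPF replicates 1 to 5 and 23.2, 28.8, 29.3, 25.0 and 25.5 FPKM in sham replicates 1 to 5. Arntl, which encodes the activator BMAL1, measured 6.85, 6.83, 5.61, 6.59 and 3.31 FPKM in the IPF lungs and 0.452, 0.415, 0.315, 0.311 and 0.340 FPKM in the sham lungs.

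In the clock genes, as in Rbm3, IPF replicate 5 was shifted from its group in the direction of sham. It was the IPF lung nearest to sham in 13 of the 19 clock genes, and on the log2 scale it stood a median of 32.7% of the way from the mean of the other IPF lungs to the sham mean. That share was 94.2% for Rbm3, 83.3% for Hsph1, 64.4% for Hspa1b, 49.8% for Cirbp and 49.7% for Hspa1a, and 22.1% for Dbp, 24.7% for Arntl, 52.7% for Per3 and 69.4% for Per1. It was the other way for Bhlhe40 (-57.0%). Sham replicate 1, low in Rbm3 and Cirbp, held the highest sham level of Per1, Per2, Per3, Cry2, Nr1d1, Nr1d2, Bhlhe41, Tef, Hlf and Ciart, and of Rora, which was not called, on the side away from the IPF means, while its Dbp (23.2 FPKM, the lowest sham level) and its Arntl (0.452 FPKM), Clock (7.38 FPKM) and Nfil3 (2.49 FPKM), each the highest sham level, lay on the side of IPF. IPF replicate 5 also had the highest summed level of neutrophil markers, 285.5 FPKM against 12.3 to 68.3 in the sham lungs. Its erythroid marker sum, 3058 FPKM, was close to the highest sham sum of 3025 FPKM. The part of these cells in the value of Rbm3 was not tested.

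**Figure D3:**
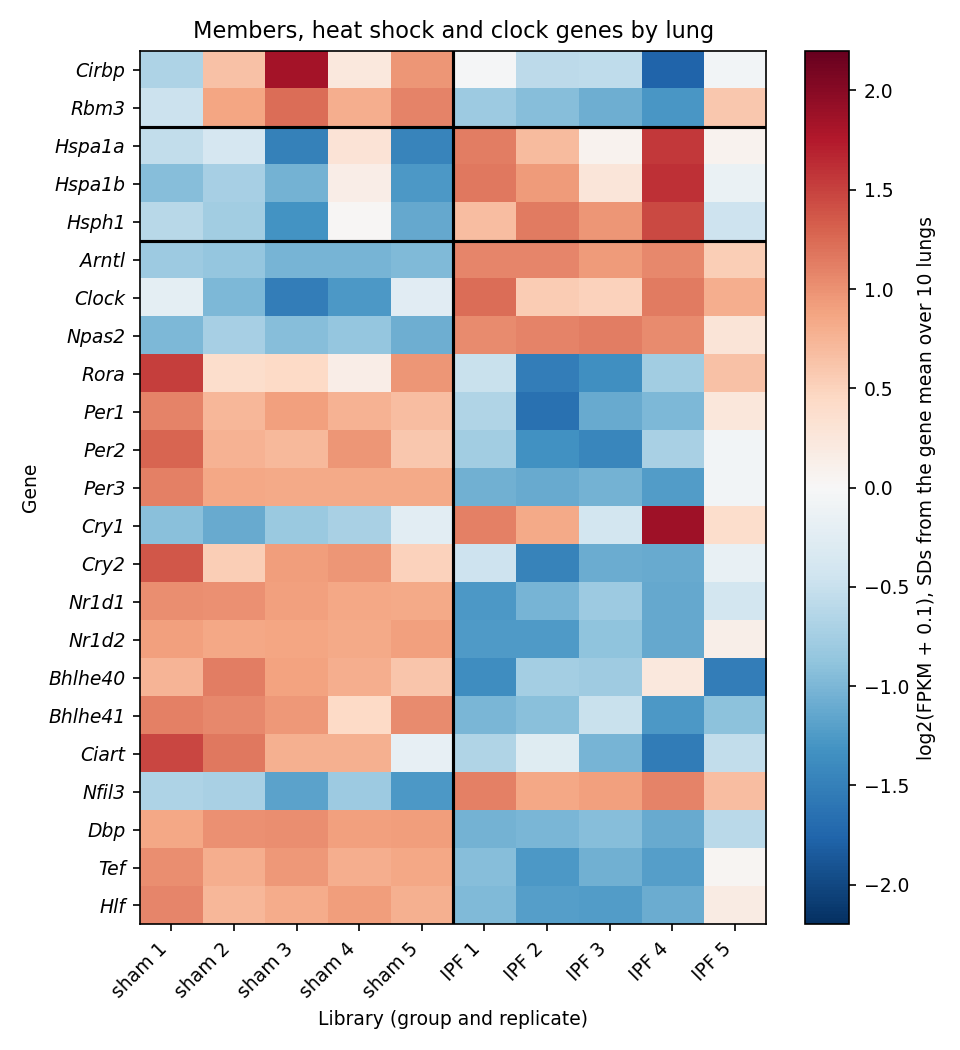
Cirbp, Rbm3, the heat shock genes Hspa1a, Hspa1b and Hsph1, and clock genes (rows) in the 10 lungs (columns). Colour is the log2(FPKM + 0.1) level in SDs from the mean of the gene over all lungs, red above and blue below. In Rbm3, IPF replicate 5 (20.3 FPKM) is red like sham replicates 2 to 5, and sham replicate 1 (15.6 FPKM) is blue like the other IPF lungs.

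Because the groups do not overlap in most clock genes, no pooled correlation with them was computed, and only deviations from the group means were related, for Arntl, Npas2, Clock, Nr1d1, Dbp, Per1, Per2 and Per3. Dbp gave r = 0.84 with Rbm3 (permutation p = 0.00694, adjusted p = 0.160 over 23 pairs) and rho = 0.78 (permutation p = 0.0120, adjusted p = 0.0921), and r was 0.63 without the 2 lungs farthest in Dbp, IPF replicates 4 and 5, and 0.64 without IPF replicate 5 alone (permutation p = 0.0535). Arntl gave r = -0.83 with Rbm3 (permutation p = 0.0197, adjusted p = 0.200) and rho = -0.68 (permutation p = 0.0458, adjusted p = 0.211), and r was -0.62 without IPF replicate 5 and sham replicate 4, and -0.59 without IPF replicate 5 alone (permutation p = 0.121). Npas2 gave r = -0.64 (permutation p = 0.111, adjusted p = 0.320), which became 0.12 without IPF replicate 5, so this value rests on that lung. Per3 gave r = 0.55 (permutation p = 0.177, adjusted p = 0.370). It was -0.72 without IPF replicate 5 and 0.49 without both IPF replicate 5 and sham replicate 1. On leaving out 1 lung it ranged from -0.72 to 0.96, so its sign depends on single lungs. With Cirbp, Dbp gave r = 0.55 (permutation p = 0.0892, adjusted p = 0.293). None of the 23 centred pairs had an adjusted p under 0.05 over all 10 lungs.

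Other genes known to follow mild cooling or the body temperature rhythm, in RNA level or splicing, showed no called change. Of 11 listed (Srsf5, Srsf2, Srsf7, Clk1, Clk4, Hnrnph1, Rbm14, Ybx3, Rtn3, Serpinh1 and Ucp1), limma called 0, 3 had an unadjusted p under 0.05, and limma voom on the recovered reads also called 0. Over all genes tested these shares were 5.85% and 19.5%, so 0 calls among 11 genes lies near the share over all genes. Their median log2 fold change was -0.005, and gene totals of this kind do not show splicing. Srsf2, a splicing factor, had groups that did not overlap, at 38.8 to 42.3 FPKM in IPF and 42.5 to 52.7 FPKM in sham (log2 fold change -0.18, limma adjusted p = 0.138). Srsf7 had a log2 fold change of 0.19 (adjusted p = 0.220 by limma) and Serpinh1, a collagen chaperone that also responds to heat, of 0.39 (adjusted p = 0.248). Ucp1, the heat-producing protein of brown fat, reached 2.21 FPKM in IPF replicate 4 and at most 0.242 FPKM in the other lungs.

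Among 13 relatives of the members, nuclear RNA-binding proteins with the same kind of RNA recognition motif, 4 fell and none rose, and 5 had groups that did not overlap. Hnrnpdl fell from 31.4 ± 1.0 to 24.6 ± 1.8 FPKM (means ± SD, a log2 difference of -0.35, limma adjusted p = 0.00577) and Hnrnpa1 from 69.5 ± 3.0 to 54.8 ± 4.9 FPKM (-0.34, limma adjusted p = 0.0130), and these calls held in all 22 alternatives tried for them. Hnrnpd fell from 14.1 ± 0.5 to 11.9 ± 0.6 FPKM (-0.24, limma adjusted p = 0.0209), but lost its call in 6 alternatives. Rbmx, the X-linked relative, differed by -0.05 in log2 units (limma adjusted p = 0.768).

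**Figure D4:**
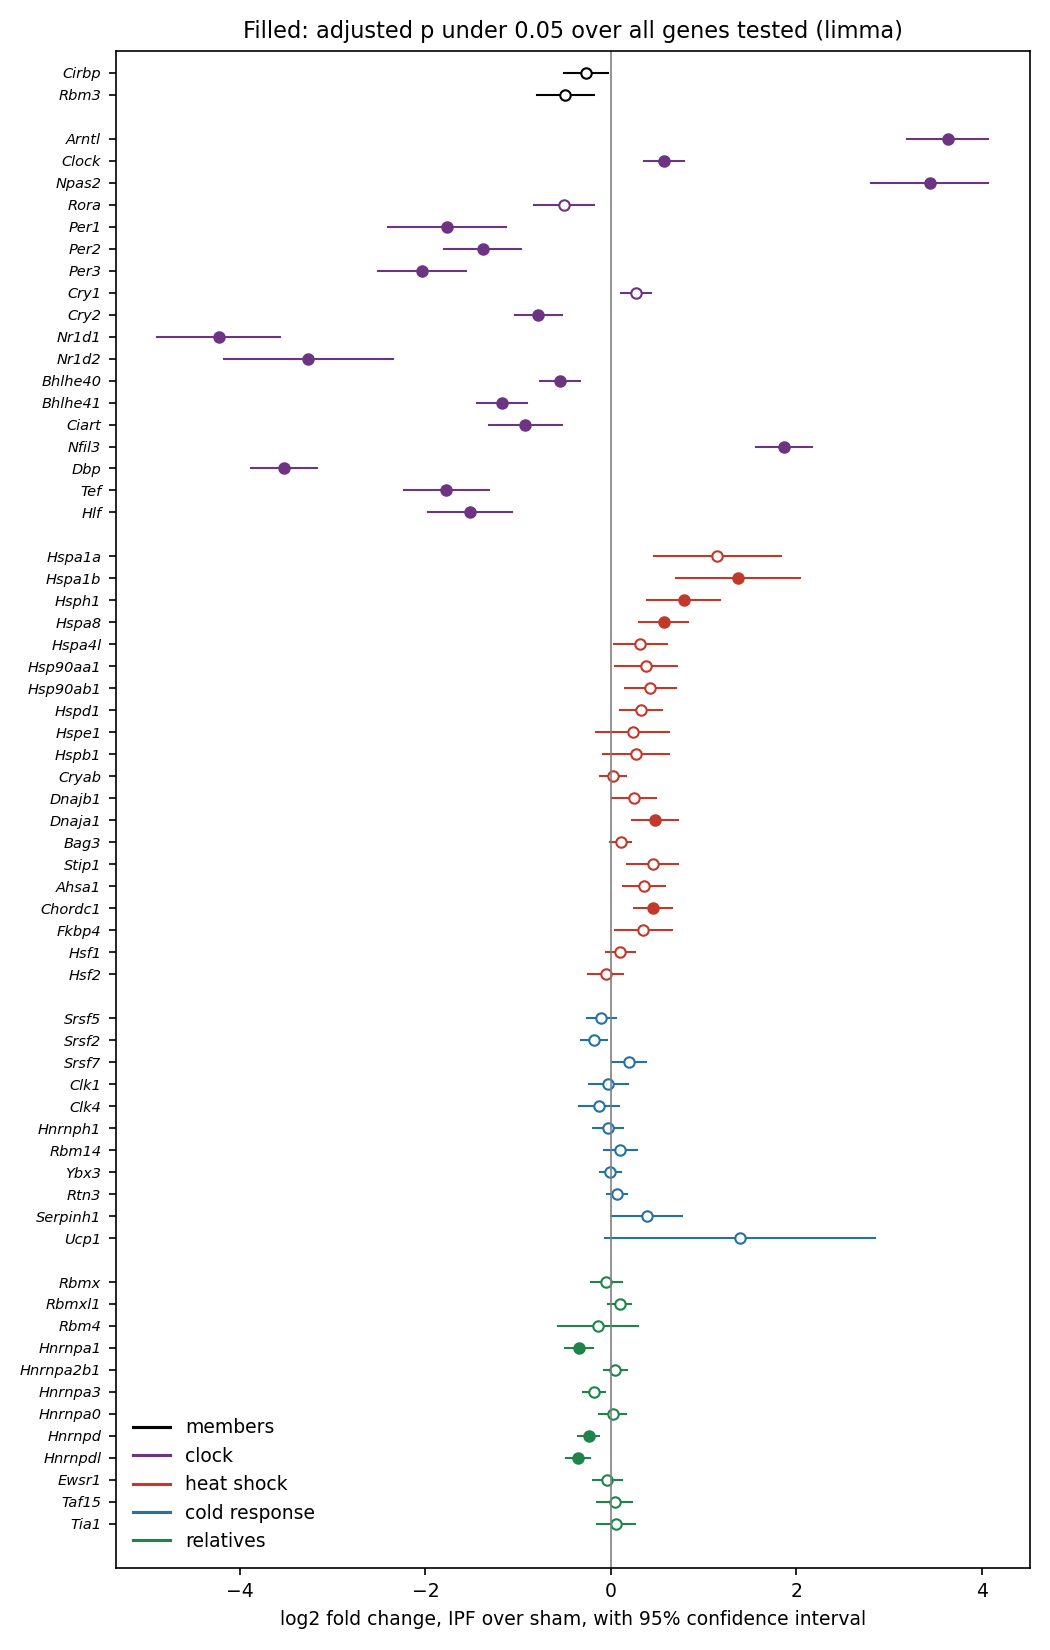
Log2 fold change of IPF over sham with its 95% confidence interval (limma, n = 5 each) for the members and for genes of the clock, heat shock, cold response and relatives lists. Filled points had an adjusted p under 0.05. The members lie at -0.27 and -0.49, clock genes run from -4.23 to 3.63, and no cold response gene is filled.

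Of 7 genes that CIRBP protein is known to bind or signal through, 3 were higher in IPF. Clock rose from 6.39 ± 0.91 to 9.50 ± 0.75 FPKM (means ± SD, limma adjusted p = 0.00684). Ly96, which encodes MD-2, was higher by 0.58 in log2 units (limma adjusted p = 0.0408) and Trem1 of 0.79 (limma adjusted p = 0.0380), on 37 to 81 and 21 to 79 reads per library, and their calls were lost in 15 and 11 alternatives. Trem1 was highest in IPF replicate 5, at 1.49 FPKM, the lung with the most neutrophil marker RNA. Rpa2 (-0.27, limma adjusted p = 0.231), Txn1 (0.09, adjusted p = 0.711) and Atr (-0.11, adjusted p = 0.667) did not pass, and neither did Tlr4, with a log2 difference of 0.28 (exact permutation p = 0.111).

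The genes whose level followed each member most closely were ranked by Pearson's r among 12067 protein-coding genes, as a description over 10 lungs. Over the level in all lungs, the genes most like Cirbp were Pik3ip1 (r = 0.95), Prss8, Clic3, Cltb and Sat2, and Rbm3 stood at rank 11. Those most like Rbm3 were Osbpl2 (r = 0.96), Zfyve21, Pole3, Pdpn and Ppp2r2d, and Cirbp stood at rank 52. Of these 10 genes, Clic3 (log2 fold change -0.33, limma adjusted p = 0.0433) and Zfyve21 (-0.40, limma adjusted p = 0.0164) were called lower in IPF, but the call of Clic3 was lost in 11 of 22 alternatives, 9 of them leaving out 1 lung. After centring on the group means, the closest to Cirbp were Tspan15 (r = 0.93), Pik3ip1, Cltb, Pym1 and Dcaf8, with Rbm3 at rank 122. The closest to Rbm3 were then 4930579G24Rik (r = 0.97), Grap, Maf1, Tspan4 and Chic2, with Cirbp at rank 361. Tspan4, a tetraspanin of cell membranes, measured 19.7, 17.1, 18.7, 19.4 and 29.5 FPKM in IPF replicates 1 to 5 and 37.7, 51.0, 57.8, 52.3 and 53.6 FPKM in sham replicates 1 to 5 (log2 fold change -1.28, limma adjusted p = 0.00102). It shared with Rbm3 the high IPF replicate 5 and the low sham replicate 1, and unlike Rbm3 its groups did not overlap.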

How the data were processed

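Whole-lung mRNA of 5 IPF and 5 sham mice at P30 was sequenced. The authors trimmed reads with Fastp, aligned with HISAT2, assembled with StringTie, and deposited a table of FPKM for 54532 genes. The submitters' processing notes also name Bowtie 0.12.2, GRCm38, mm10 and hg38, and the methods name GRCm39. Positions in the table fit GRCm38. The product of FPKM and gene length gave whole reads, within 0.01, for 100% of 233626 values above 0.

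Genes with a mean of at least 0.1 FPKM (20448) were fitted by limma 3.58.1 (R 4.3.3) on log2(FPKM + 0.1), empirical Bayes with trend, IPF against sham, no covariate, with Benjamini-Hochberg adjustment over all of them and a call at adjusted p under 0.05. DESeq2, which the methods name, was not used, and limma voom was run on the recovered reads as an alternative. The test was checked on simulated data. Exact two-sided permutation tests used all 252 assignments. Correlations were computed on log2 levels, pooled (100000 permutations) or centred on group means (14400 permutations within groups), with SciPy 1.17.1 and Python 3.11.15. Nothing said that the mice of a group shared a litter or a day, and p-values measure the spread between these lungs. Deviations of samples with the same replicate number in the 2 groups gave r from -0.02 to 0.10 over 5 pairs. Pairs of other number gave r from -0.06 to 0.07 over 20 pairs. Of the 5 IPF lungs, 3 correlated best with their own number. Whether the numbers mark pairs is not known, and no block was used in the main fit.

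Named genes were the members, rows whose name holds a member's name, the clock, heat shock, cold response, relatives, Cirbp partners, and X and Y lists, neighbours, and the 5 protein-coding genes most like each member. The members and lists were chosen with earlier results of these data known. Alternatives were other pseudocounts, filters, scalings, no trend, limma voom, a replicate block and leaving out lungs. Promoters and transcripts came from RefSeq (GRCm38.p6) and GENCODE M39, and Rbm3 has no entry in the promoter table. Some listed genes are counted but not reported here by name. Raw reads were not used here.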

Additional observations from a re-analysis of the deposited data

Results flagged for a closer look

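In groups of 5 lungs, a lung was taken as far from the rest where its gap to the nearest lung, as a share of the range, passed Dixon's 95% limit. Chance alone gives about 1 in 20 such groups, and 12 were found in 164 groups of 82 genes. Of these, 7 were IPF replicate 5 and 2 were sham replicate 1. Rbm3 gave both, with IPF replicate 5 high in its group at 20.3 FPKM and sham replicate 1 low in its group at 15.6 FPKM. Among clock genes, IPF replicate 5 stood apart in Arntl (3.31 FPKM) and Npas2 (1.29 FPKM), low in each, and in Hlf (9.70 FPKM), Nr1d2 (17.3 FPKM), Per3 (6.87 FPKM) and Tef (39.1 FPKM), high in each. In all of these it lay between the other IPF lungs and the sham lungs. Sham replicate 1 stood apart in Per3 (17.3 FPKM), above its group. Sham replicate 4 was low in Bhlhe41 (2.06 FPKM) and high in Dnajb1 (25.7 FPKM), and IPF replicate 1 was high in Hnrnpa0 (107.1 FPKM). Cirbp gave none.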

How the results depend on the processing

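Rbm3 and Cirbp were lower in IPF under every alternative run. For Rbm3 the adjusted p passed the threshold with a mean of at least 1 FPKM required (log2 fold change -0.49, limma adjusted p = 0.0498), quantile normalization (-0.52, limma adjusted p = 0.0387), scaling to the autosomal protein-coding total (-0.49, limma adjusted p = 0.0423) and limma voom on the recovered reads (-0.50, adjusted p = 0.0222). Leaving out 1 lung gave -0.61 to -0.44 for Rbm3 and -0.34 to -0.20 for Cirbp. Leaving out IPF replicate 5 and sham replicate 1 together was chosen after seeing the data, since they stood apart in Rbm3 itself, and is given with no test. It gave -0.71 for Rbm3, -0.37 for Cirbp, -0.34 for Rbm3 minus Cirbp, 11 called heat shock genes and 1 called cold response gene. Adding the reads of Rbm3-ps was also chosen after seeing the data. The number of called heat shock genes was 8 with a mean of at least 1 FPKM, 3 with the autosomal total, 3 without the variance trend, 8 with voom, and 1 to 13 on leaving out 1 lung. The cold response count was 1 with quantile normalization (Srsf2, lower) and 1 without IPF replicate 5 (Serpinh1, higher), and 0 on leaving out any other single lung. Clock genes called numbered 17 to 18 throughout. Rbm3 minus Cirbp was -0.31 to -0.18, and the centred r of Cirbp and Rbm3 0.60 to 0.85, on leaving out 1 lung. Called genes numbered 775 to 1620 on leaving out 1 lung, and with the fold limit 171 to 299, 74 for a pseudocount of 1 and 154 for the filter at 1 FPKM. The cause of these changes was not tested.

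Under the replicate block, the log2 fold change was -0.49 for Rbm3 (limma adjusted p = 0.0629) and -0.27 for Cirbp, and 9 heat shock genes were called. Of the 5 IPF lungs, 3 correlated best with the sham lung of their own number. Rbm3 and Cirbp had enough reads that depth was not the limit, whereas Rbm3-ps, Rbm3os, Trem1 and Ly96 rested on few. Sex and operation, and any difference in the hour of collection, cannot be told apart with these lungs.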

Other observations

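Markers of the cells a whole lung holds were summed beside the members. Of 4 B cell markers, 4 were called higher in IPF, with a summed level of 30.7 to 45.7 FPKM against 16.5 to 27.2 FPKM in sham, although Cd79b lost its call in 7 of 22 alternatives, and of 4 endothelial markers 1 was called, the tight junction gene Cldn5 (log2 fold change 0.56, limma adjusted p = 0.0107). The summed endothelial level did not overlap between the groups, at 921.2 to 1034 FPKM in IPF and 799.0 to 852.2 FPKM in sham, and 2 of the 4 markers, Cldn5 and Kdr, had an unadjusted p under 0.05. Taken singly, only Cldn5 had groups that did not overlap, and Pecam1 went the other way (log2 fold change -0.05, limma adjusted p = 0.753). None of the alveolar type 2, alveolar type 1, secretory airway, ciliated airway, smooth muscle, heart muscle, fat, erythroid, neutrophil or T cell markers was called by limma, and an unadjusted p under 0.05 was seen in 3 of 4 neutrophil, 1 of 4 alveolar type 1 and 1 of 4 T cell markers. The summed levels of these lists overlapped between the groups, but the levels of Sftpb and Mmp9 did not. In 1 alternative each, Sftpb (limma voom, adjusted p = 0.0431) and Mmp9 (replicate block, limma adjusted p = 0.0476) were called. Cyp2f2 and Dnah5 were called without IPF replicate 3. Secretory airway markers ran from 3712 to 27455 FPKM in IPF and from 11526 to 22991 FPKM in sham, and heart muscle markers from 16.3 to 145.3 FPKM in IPF and from 26.4 to 135.3 FPKM in sham. Fat markers summed to at most 2.61 FPKM and thymocyte markers to at most 0.469 FPKM, so that none of the thymocyte genes was tested. In the lungs that stood apart in Rbm3, IPF replicate 5 had the highest endothelial sum of all lungs (1034 FPKM) and sham replicate 1 the lowest (799.0 FPKM). The low sum of sham replicate 1 came with its Cldn5 (237.8 FPKM, the lowest sham level). Its Cdh5 (312.0 FPKM) and Kdr (63.4 FPKM) were the highest sham levels. IPF replicate 5 also had the lowest B cell sum of its group (30.7 FPKM), and sham replicate 1 the lowest neutrophil sum (12.3 FPKM) and T cell sum (5.97 FPKM) of all lungs. The part of these cells in the levels of Cirbp and Rbm3 was not tested.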
